A study of Mus musculus with 6 samples.

Results

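Voltage-gated sodium and calcium channels open when the membrane depolarises, and each is built around a large pore-forming α subunit whose activity and surface level are set by smaller partners. Sodium channel α subunits (Scna genes) carry the upstroke of the action potential and pair with β subunits, which are membrane proteins with an immunoglobulin domain. Calcium channel α1 subunits (Cacna1 genes) admit calcium for transmitter release, pacemaking and signalling to the nucleus, with α2δ subunits outside the membrane and cytoplasmic β subunits inside. The genes described here were taken by symbol alone: Scn with a number and a or b, Cacna1, Cacna2d, or Cacnb with a number. Of 19938 genes with a probe that carried exactly 1 symbol, 28 met this rule. They were 8 sodium channel α, 3 sodium channel β, 10 calcium channel α1, 4 α2δ and 3 calcium channel β subunits.

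RNA came from N2A cells, a mouse neuroblastoma line, harvested 72 h after transient transfection with an shRNA construct against Pbcas4 (3 arrays) or with a scramble control (3 arrays), using Lipofectamine Plus in triplicate. Pbcas4 is a mouse gene that has lost its coding ability while its human counterpart BCAS4 keeps it, and the study compared the constructs to find which transcripts change when Pbcas4 RNA is lowered. The study lists 1 hairpin against Pbcas4 and 1 scramble hairpin, driven by a U6 promoter (modified pll3.7 vector), and the arrays come from a single cell line. The share of cells that took up the plasmid is not given in the sources used here. The values were the authors' normalized log2 expression from Affymetrix Mouse Gene 1.0 ST arrays, and Pbcas4 itself was not analysed here because 0 probes carried its name. Array values are given in the order of replicates 1, 2 and 3.

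All 14 measured markers of neuroblastoma, among them Hand2, Gata2, Th and Stmn2, lay above background, a limit taken from the signal of olfactory receptor genes (log2 level 7.20). Only Cd68 of 6 macrophage markers did so, at 7.97, and Ptprc, Csf1r and Itgam did not. Of the other marker lists, 5 of 6 fibroblast, 4 of 5 glial and 7 of 10 striated muscle markers lay above it, the highest being Tnnt2 at 9.41. The arrays of a condition were not alike in every respect. For 11 cell division genes the mean level was 12.60, 12.44 and 12.42 in shRNA replicates 1 to 3 and 12.44, 11.66 and 11.18 in scramble replicates 1 to 3, so that scramble replicate 1 lay with the shRNA arrays. The mean of the 14 neuroblastoma markers did not overlap, being 11.50, 11.42 and 11.37 with the shRNA but 11.84, 11.95 and 11.76 with the scramble. In such bulk RNA, fewer cells of one kind and less RNA per cell cannot be told apart.

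To rank the subunits, the probe with the highest mean stood for each gene. Background was set at the 95th percentile of the means of 1027 olfactory receptor genes, a log2 level of 7.20. By this measure 16 of the 28 channel genes (57.1%) lay above background, against 68.2% of all genes. This order turned with the limit: at the 90th percentile it was 21 (75.0%) against 74.7%, and with vomeronasal and bitter taste receptor genes as the reference it was 25 (89.3%) against 82.3%. At the stricter 99th percentile it held, with 12 (42.9%) against 57.7%. Probes differ in how brightly they report the same amount of RNA, so the order is one of array signal and not of transcript number. The nearest genes on either side of the limit were Cacna1s (7.32) and Scn2b (7.13).

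Cacna1b, the α1 subunit of the N-type channels that trigger transmitter release in sympathetic neurons, had the highest signal, with a mean over the 6 arrays of 11.32, at the 85.0th percentile of all genes. Scn3b, a sodium channel β subunit, followed at 11.16. Scn9a, the α subunit of Nav1.7 of sensory and sympathetic neurons, was at 11.06, and Scn2a, the α subunit of the brain channel Nav1.2, was at 10.79. These 4 means lay within the spread between single arrays: Cacna1b alone ranged from 10.63 to 11.62. The next in order were Cacnb1, a β subunit (10.41), Cacna1c, the L-type α1 subunit Cav1.2 (10.39), and Scn8a, the α subunit Nav1.6 of mature axons (9.72). All 3 T-type α1 subunits, which open at low voltage, were above background, with Cacna1g at 9.41, Cacna1i at 8.69 and Cacna1h at 8.14. Scn3a, an α subunit of the embryonic brain, was at 8.27, and Cacna1a, the P/Q-type α1 subunit, was at 7.95.

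A further 4 genes above background, Cacna2d4 (7.67), Cacna2d2 (7.64), Cacnb2 (7.37) and Cacna1s (7.32), stood below the 99th percentile of the olfactory receptor genes (7.81). This left 12 genes with a mean above that limit. Among them, Scn3a (7.40 in shRNA replicate 1) and Cacna1a (7.74 in shRNA replicate 2) fell below it in a single array. Cacna1s is the L-type α1 subunit of skeletal muscle. All 4 α2δ genes were thus dim, and Cacna2d1 was the dimmest of the 28 at 5.31. The 12 genes near background held α subunits of sensory neurons (Scn10a and Scn11a), the brain subunit Scn1a, the atypical Scn7a, the L-type Cacna1d and Cacna1f, the R-type Cacna1e, the β subunits Scn2b, Scn4b and Cacnb4, and the α2δ genes Cacna2d1 and Cacna2d3. Their means ran from 5.31 to 7.13.

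**Figure D1:**
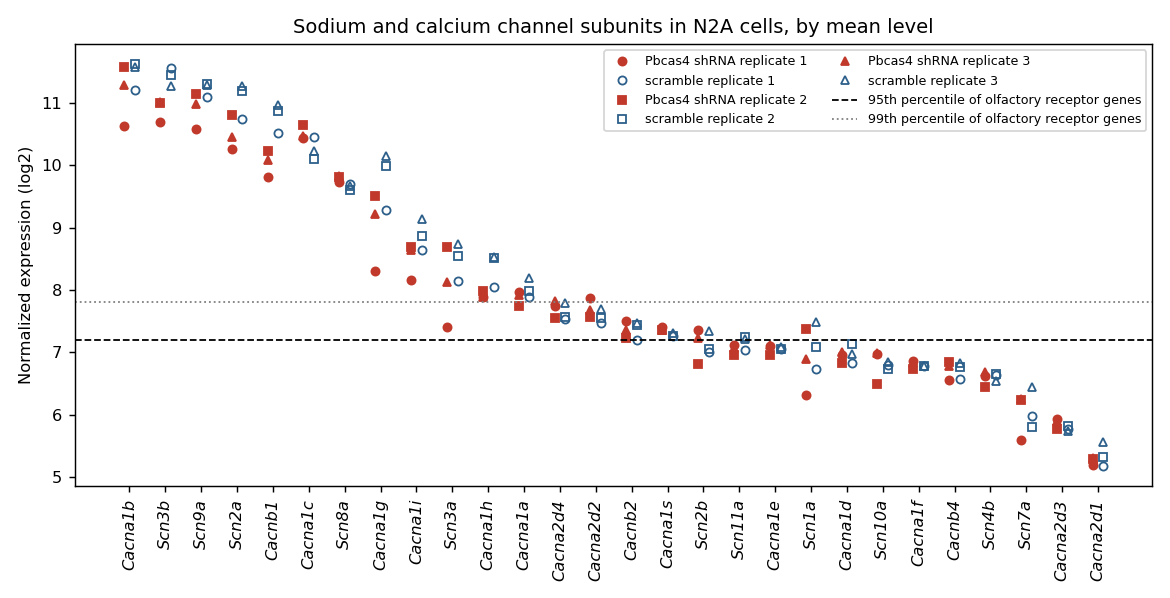
Normalized log2 expression (vertical axis) of each of the 28 channel genes in the 6 arrays, with genes ordered by mean along the horizontal axis. Filled red symbols are the Pbcas4 shRNA arrays, open blue symbols the scramble arrays, and the lines mark the 95th (7.20) and 99th (7.81) percentiles of olfactory receptor genes; 12 genes have a mean above both lines.

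The promoter sequences of these genes were compared where RefSeq (GRCm38.p6) gave them, as 300 bases from 250 before to 50 after a transcription start. There were 31 promoters for 22 of the genes. A GC box, here the letters GGGCGG on either strand, was in 12 of them (38.7%), against 35.7% of all 32851 promoters. It was in 6 of the 16 promoters of genes above background and in 6 of the 15 of genes near background. The 16 promoters came from only 10 of the genes above background, and the 15 from all 12 near background. Scn3b, Scn3a, Cacna1g, Cacna1h, Cacna1a and Cacna2d4, all above background, had no promoter entry. The letters TATAAA, on either strand, were in 2 promoters (6.45%), against 13.6% of all. The E box CAGCTG, which reads the same on both strands, was in 10 (32.3%), against 16.3% of all. Of the parts of the element bound by the neuronal gene repressor REST, searched on both strands, TTCAGCACC was in 0 promoters, against 0.371% of all, and GGACAGC was in 1 (3.23%), against 6.56% of all. With shares this low, 31 promoters cannot show a lack of the element, and sequence outside the 300 bases was not searched. Windows are shown for 3 of the brighter genes. Cacna1b had a GC box at its only listed start, and Cacna1c at 1 of its starts. The later of the 2 Scn2a starts held TATAAA. Cacnb1 also had a GC box at 1 of its starts and is not shown. The Cacna1b window opens with a further GGGCGG, left in lower case. Each window is 30 bases, 5′ to 3′ on the gene's strand, with 1 match in capitals:
Cacna1b (chr2:24763253-24763282, minus strand): gggcggccgcggGGGCGGggtctgtggggt
Cacna1c (chr6:119108642-119108671, minus strand): gggcgcgggcagGGGCGGgcgcgggcgcgg
Scn2a (chr2:65668590-65668619, plus strand): tctagtggcagtTATAAAaatgtcactttg
A match describes the letters of the window and not a bound site.

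The comparison of the constructs asked whether the channel genes differed between cells with the Pbcas4 shRNA and cells with the scramble construct. A call needed a Benjamini-Hochberg p under 0.05 in limma over all probes and a log2 difference of more than 0.5 either way. It was met by 0 of the 28 genes and by 0 of 19938 genes in all (0%). The study itself reported differentially expressed genes from these arrays, a majority of them down-regulated, so its calls differ from those here. The source of that discrepancy was not tested. With array weights, a fit that did not converge, 3 channel genes were called against 6.62% of all genes. The lowest adjusted p among the channel genes was 0.354. At an unadjusted p under 0.05, limma gave 4 channel genes lower in the shRNA arrays (14.3%) and 0 higher, against 5.46% of all genes lower and 6.22% higher. The 4 were Scn3b, Scn2a, Cacnb1 and Cacna1h, and all of them lay above background. Among genes above background the share lower was 25% of the 16 channel genes, or 4, against 7.58% of 13597 genes, and 0 of the 16 were higher, against 8.62%. The mean was lower in 19 of the 28 (67.9%), against 49% of all genes. The log2 differences of the 16 had a median of -0.31, with 11 of 16 (68.8%) below 0, whereas the median over all genes above background was 0.0050 and 48.8% of them were below 0. Potassium channel genes (symbols in Kcn) had a like share of lower means, 36 of the 51 above background (70.6%), with a median of -0.030. The 12 channel genes near background had a median difference of -0.017, between -0.24 and 0.09. The exact two-sided permutation test cannot go below p = 0.1 with 3 arrays against 3.

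These counts leaned on single arrays. Without shRNA replicate 1, in which 11 of the 16 genes were lowest of their condition, the median was -0.12 and 2 genes were lower at an unadjusted p under 0.05. There were also 2, each time Cacnb1 and Scn3b, when shRNA replicate 3 or either of scramble replicates 2 and 3 was left out. Without shRNA replicate 2 there were 7, and without scramble replicate 1 there were 6. The share of all genes at the same p was not counted with arrays left out. Such counts therefore cannot be set against the whole array. With both arrays numbered 1 left out, a choice made after seeing the data, 6 genes were lower (Scn3b, Scn2a, Cacnb1 and all 3 T-type genes), 1 was higher (Cacna1c), and the median was -0.23 with 11 of the 16 differences below 0. The replicate number was also used as a block, although the labels do not state that same-numbered arrays were paired. Deviations of same-numbered arrays from their condition means correlated at 0.291, 0.137 and 0.103. The correlation of shRNA replicate 2 with scramble replicate 3 was 0.199. With this block, limma gave 7 channel genes lower at an unadjusted p under 0.05 (25.0% of the 28), against 7.35% of all genes. It gave 0 higher, against 7.2%. All 7 were among the 16 channel genes above background. Of all genes above background, 10.4% were lower and 10.2% higher with the block. The 7 were the same 4 with Scn9a, Cacna1g and Cacna1i. None of them passed after adjustment over all probes (adjusted p = 0.246 to 0.351 in limma with the block). The level of the 16 genes followed the replicate number in part: their mean was 8.90, 9.22 and 9.13 in shRNA replicates 1 to 3 and 9.17, 9.37 and 9.45 in scramble replicates 1 to 3. The part of the cell division and neuroblastoma marker levels in these differences was not tested.

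**Figure D2:**
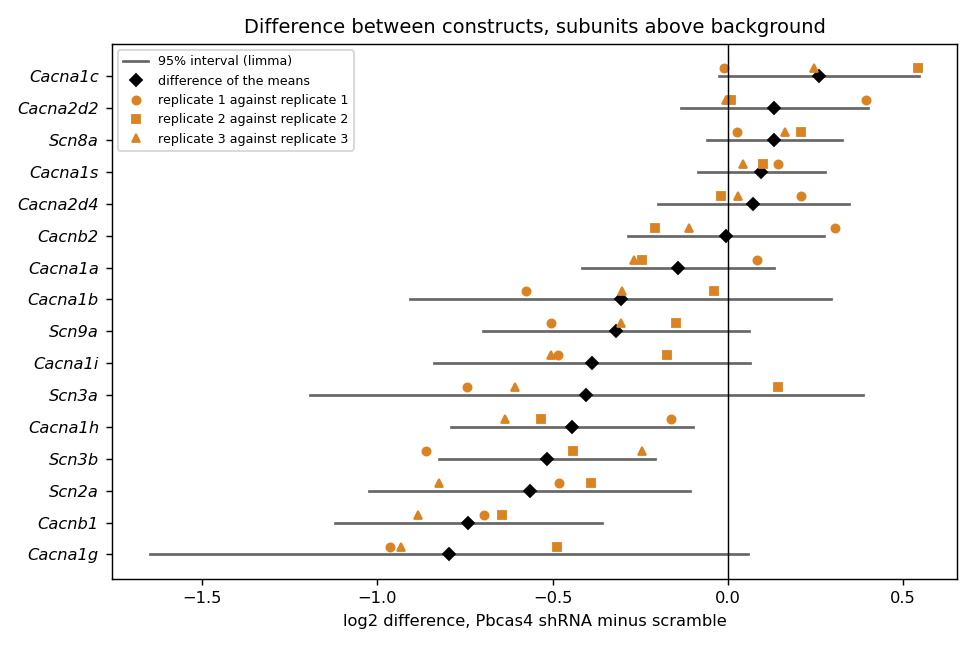
Log2 difference, Pbcas4 shRNA minus scramble (horizontal axis), for the 16 channel genes above background. Diamonds are differences of the 3-array means, lines their 95% intervals from limma, and orange symbols the differences between arrays with the same replicate number; the intervals of Scn3b, Scn2a, Cacnb1 and Cacna1h lie below 0.

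Among the sodium channel α subunits, Scn2a read 10.26, 10.80 and 10.45 in shRNA replicates 1 to 3 and 10.75, 11.19 and 11.28 in scramble replicates 1 to 3. The conditions overlapped only where shRNA replicate 2 lay above scramble replicate 1. This is a log2 difference of -0.57 ± 0.19 (standard error, SE; limma adjusted p = 0.431), and between arrays of the same number it was -0.48, -0.39 and -0.82. Scn2a was the gene with the most probes, 14, and the differences of all 14 were below 0, from -0.64 to -0.22. Of these, 4 had an unadjusted p under 0.05 in limma, and shRNA replicate 1 was the lowest of its condition for 13. The probes sample 1 transcript family and are not replicates of each other. Averaged over all its probes, Scn2a no longer passed an unadjusted p under 0.05.

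**Figure D3:**
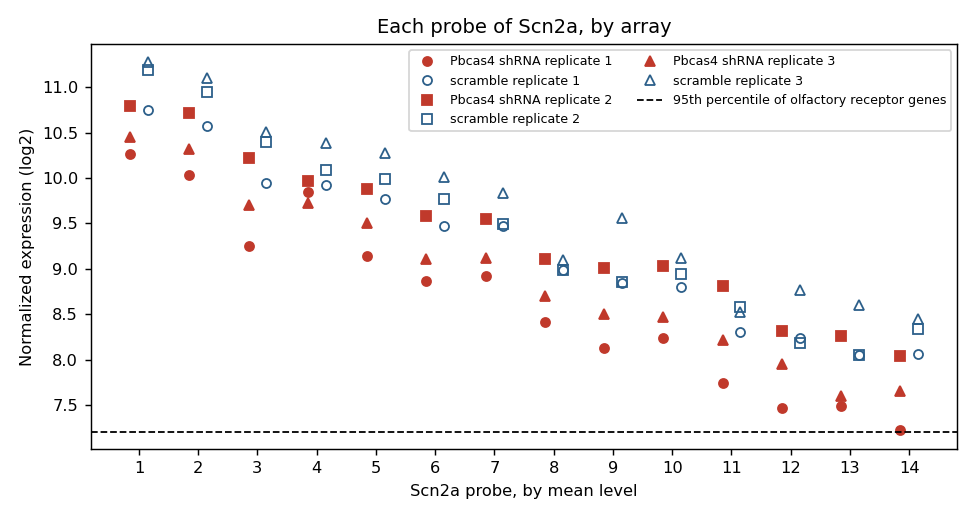
Normalized log2 expression (vertical axis) of the 14 Scn2a probes in each array, ordered along the horizontal axis by mean level. Filled red symbols are the Pbcas4 shRNA arrays and open blue symbols the scramble arrays; probe means run from 10.79 down to 7.96, all above the dashed background line, and all 14 probes have the lower mean with the shRNA.

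Scn9a read 10.58, 11.15 and 10.98 with the shRNA, against 11.09, 11.30 and 11.28 with the scramble. Its difference was -0.32 (SE 0.16, limma adjusted p = 0.566), and its second probe, which is dimmer, differed by -0.34 (unadjusted p under 0.05, limma adjusted p = 0.486). Scn3a spread widely, from 7.40 in shRNA replicate 1 to 8.69 in shRNA replicate 2, with means of 8.07 (shRNA) and 8.47 (scramble), and its difference of -0.40 had a 95% interval of -1.19 to 0.39. Scn2a, Scn3a, Scn9a, Scn1a and Scn7a are neighbours on chromosome 2, and 3 probes carried more than 1 of their symbols. The one shared by Scn3a and Scn1a differed by -0.72, the one shared by Scn9a and Scn3a by -0.40, and the one shared by Scn2a, Scn9a and Scn3a by -0.35. None of the 3 passed after adjustment (adjusted p = 0.472 to 0.781 from limma).

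Scn8a went the other way. It read 9.73, 9.82 and 9.82 with the shRNA, against 9.70, 9.61 and 9.66 with the scramble, so the shRNA arrays were higher without overlap by a small margin. Its difference of 0.13 had a 95% interval of -0.06 to 0.32 (adjusted p = 0.657 from limma). Cacna1s, close to background, read 7.40, 7.35 and 7.35 with the shRNA, against 7.26, 7.25 and 7.31, a difference of 0.10. Non-overlap in this direction was found for 2 of the 28 channel genes (7.14%), Scn8a and Cacna1s, against 9.13% of all genes. For the 16 above background it was 12.5%, against 11.4% of genes above background.

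Of the sodium channel β subunits, only Scn3b lay above background. It read 10.70, 11.00 and 11.02 with the shRNA, against 11.56, 11.45 and 11.26 with the scramble, and every shRNA array was below every scramble array. The means were 10.91 ± 0.18 (SD, n = 3) and 11.42 ± 0.15 (SD, n = 3), a factor of 0.699 on the linear scale. The shift on the log2 scale was -0.52 (SE 0.13, limma adjusted p = 0.376), and it was between -0.60 and -0.41 when any 1 array was left out. Scramble replicate 1, which is low for most channel genes, was the highest array for Scn3b. Scn2b and Scn4b, near background, differed by -0.0014 and -0.025.

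**Figure D4:**
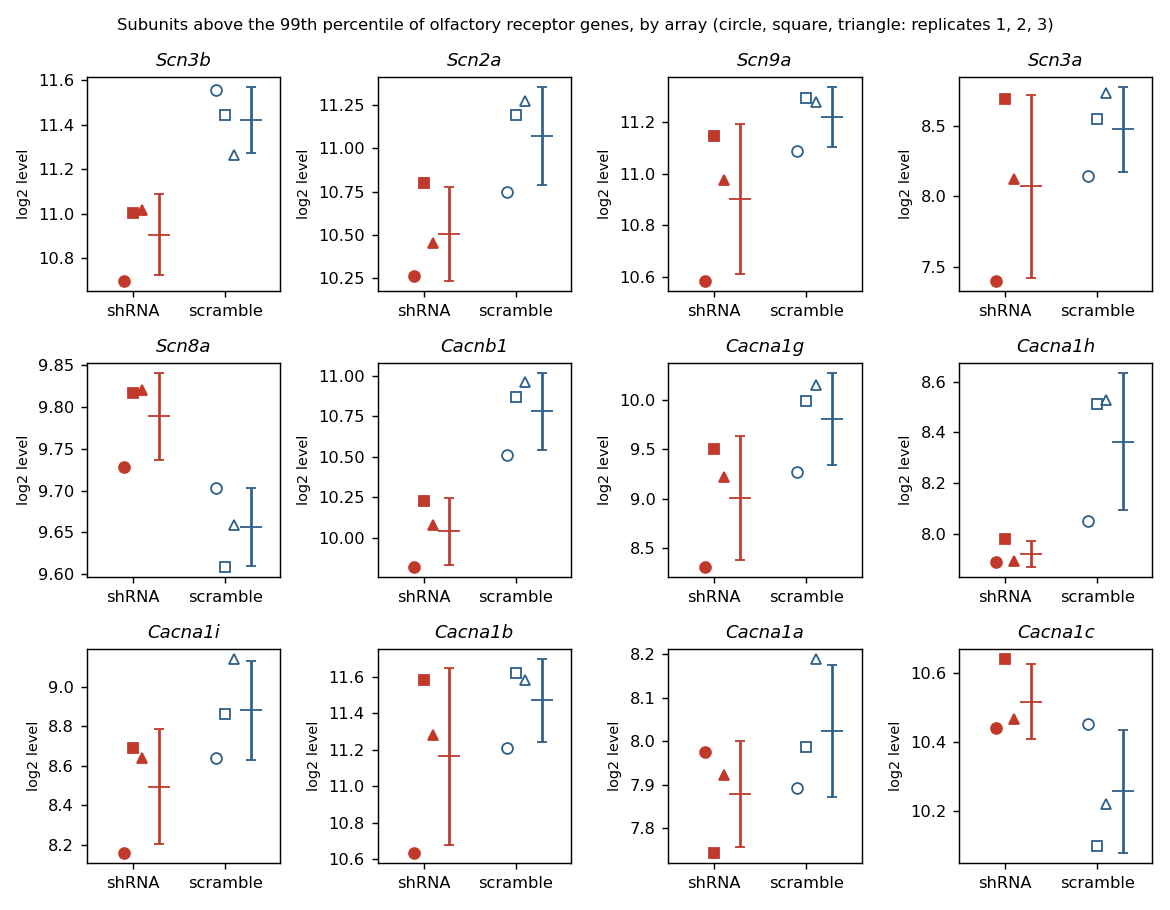
Normalized log2 expression of the 12 channel genes that lie above the 99th percentile of olfactory receptor genes, 1 panel per gene, each with its own vertical axis. Symbols are single arrays (circle, square and triangle for replicates 1, 2 and 3) and bars are the mean and SD of 3 arrays; the 3 shRNA values are all below the 3 scramble values for Scn3b, Cacnb1 and Cacna1h, and all above them for Scn8a.

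Among the calcium channel β subunits, which bind the α1 subunit in the cytoplasm and raise its number at the surface, Cacnb1 had the lowest p of all 28 genes. It read 9.82, 10.22 and 10.08 with the shRNA, against 10.51, 10.87 and 10.96 with the scramble, with no overlap. The means were 10.04 ± 0.21 (SD, n = 3) and 10.78 ± 0.24 (SD, n = 3), a factor of 0.598 on the linear scale. The shift on the log2 scale was -0.74 (SE 0.16, 95% interval -1.12 to -0.36, limma adjusted p = 0.354). It was -0.69, -0.64 and -0.88 between arrays with the same number, and between -0.87 and -0.63 when any 1 array was left out. Cacnb2 (means 7.37 in both conditions, difference -0.0050) and Cacnb4 (0.014) were dimmer and gave 95% intervals of -0.28 to 0.27 and -0.27 to 0.29.

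The mean of each of the 3 T-type α1 subunits was lower with the shRNA. Cacna1h read 7.89, 7.98 and 7.89 with the shRNA, against 8.05, 8.51 and 8.53 with the scramble. The conditions did not overlap, although scramble replicate 1 was close to the shRNA arrays. The difference was -0.44 (SE 0.14, limma adjusted p = 0.429). When any 1 array was left out, it was between -0.60 (without scramble replicate 1) and -0.36 (without scramble replicate 3). Cacna1g had the widest difference of the 28 genes and also a wide spread, at 8.31, 9.50 and 9.22 with the shRNA, against 9.28, 9.99 and 10.15 with the scramble. Its difference of -0.80 (SE 0.36, limma adjusted p = 0.520) had a 95% interval of -1.65 to 0.06, and was -0.45 without shRNA replicate 1. Between arrays of the same number it was -0.96, -0.49 and -0.93, and with the replicate block limma gave an adjusted p of 0.255. Cacna1i had means of 8.49 with the shRNA and 8.88 with the scramble, a difference of -0.39 (adjusted p = 0.559 from limma).

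Non-overlap with lower shRNA arrays was thus seen for 3 of the 28 channel genes (10.7%), Scn3b, Cacnb1 and Cacna1h, against 7.63% of all genes. For the 16 above background it was 18.8%, against 9.61% of genes above background.

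The α1 subunits of the other calcium channels differed less. Cacna1b read 10.63, 11.58 and 11.28 with the shRNA, against 11.21, 11.62 and 11.58 with the scramble, which overlap. Its difference of -0.31 had a 95% interval of -0.91 to 0.30 and was -0.040 without shRNA replicate 1. Cacna1a, at 7.88 with the shRNA and 8.02 with the scramble, differed by -0.14 (95% interval -0.42 to 0.13). Cacna1c had the largest positive difference, at 10.44, 10.64 and 10.47 with the shRNA, against 10.45, 10.10 and 10.22 with the scramble. It was 0.26 (95% interval -0.03 to 0.55, adjusted p = 0.531 from limma). When any 1 array was left out, it was between 0.18 (without scramble replicate 2) and 0.36 (without scramble replicate 1). Scramble replicate 1 was the one scramble array at the shRNA level. Of the α2δ subunits, which carry the channel to the membrane, Cacna2d4 differed by 0.07 and Cacna2d2 (means 7.70 and 7.57) by 0.13, both within the spread between arrays. Cacna2d4 read 7.74, 7.55 and 7.82 with the shRNA, against 7.53, 7.57 and 7.79 with the scramble.

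Genes related to these channels were counted in the same fit. Of 7 measured genes of the Cacng family, most of which serve as AMPA receptor partners, 0 had an unadjusted p under 0.05 in limma, and the median log2 difference was -0.077. The count was also 0 for 11 genes listed for sodium channels (median 0.021), such as ankyrins and Fgf12 to Fgf14. That list also held Nalcn, a separate channel gene, with Unc79 and Unc80. Only 6 of the 11 lay above background, and Fgf12 to Fgf14 did not. For 14 partners of calcium channels, such as RGK and Stac proteins, the count was 0 as well (median -0.061). Of 23 genes of calcium handling and calcium signalling, 5 were lower (21.7%) and 0 higher at an unadjusted p under 0.05 in limma, against 5.46% lower and 6.22% higher of all genes, with a median of -0.13. Of the 23, 20 lay above background, and among all genes above background 7.58% were lower and 8.62% higher. The lowest p were those of Slc8a3, a sodium-calcium exchanger (-0.47 on the log2 scale, SE 0.10, limma adjusted p = 0.355), and Atp2b3, a plasma membrane calcium pump (-0.74, SE 0.18, limma adjusted p = 0.376). Of 4 measured sodium pump subunits, 1 (25.0%) was lower by the same measure, Atp1b2 (-0.39, adjusted p = 0.439 from limma). For comparison, of 91 potassium channel genes with symbols in Kcn, 56.0% were above background, 6 were lower (6.59%) and 1 was higher (1.10%) by that measure, and 55 (60.4%) had a lower mean. Whether the channel classes differ from each other was not tested.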

How the data were processed

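The authors deposited 1 table of log2 expression values, with 1 normalized value per probe and array; the methods of background correction, summarization and normalization are not given in the sources used here. The table held 35556 probes, of which 21789 carried 1 symbol, 1621 several and 12146 none in the platform annotation. No further normalization was applied. Each gene was represented by its probe with the highest mean over the 6 arrays, out of 43 probes for the 28 channel genes. All probes were fitted in limma 3.58.1 (R 4.3.3; lmFit and eBayes) with 1 term for the construct, two-sided, and p-values were adjusted over the whole table (Benjamini-Hochberg). Calls needed an adjusted p under 0.05 and a log2 difference of more than 0.5 either way; the methods ask for a variance between conditions over 0.5, which was read as that difference. The fit was tested on simulated data. The 16 channel genes above background were named with their means, and array values were given for those with an unadjusted p under 0.05, for those whose conditions did not overlap and for the brightest of each family; related genes were named for the lowest p, at most 2 per list. Promoters came from RefSeq (GRCm38.p6). The genes and lists were chosen with earlier results of these data known. P-values rest on the spread of 3 transfections per condition, and precision is limited by the number of arrays.

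For the replicate block, the replicate numbers were taken to pair the arrays, though the labels do not state a pairing. After the condition means were removed, same-numbered arrays correlated across probes at 0.291, 0.137 and 0.103. However, shRNA replicate 2 correlated more with scramble replicate 3 (0.199). Alternatives were the replicate block, quantile normalization, median centring, a trended robust variance, array weights, averaging all probes of a gene, leaving out dim probes, other background limits and leaving out each array; leaving out both arrays numbered 1 was added after seeing the data.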

Additional observations from a re-analysis of the deposited data

How the results depend on the processing

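With array weights, whose estimation did not converge and which favoured shRNA replicate 3 (5.32) and scramble replicate 2 (2.39), limma called 1320 genes (6.62%) and 3 channel genes, Scn2a, Cacnb1 and Cacna1h (adjusted p = 0.0172 to 0.0190), while 8 channel genes were lower and 2 higher at an unadjusted p under 0.05. No other alternative called a gene. The share of all genes at an unadjusted p under 0.05 was counted only for the main fit and the replicate block. The channel gene counts under the other alternatives have no such share beside them. With the replicate block 7 channel genes were lower, and the block changed no adjusted call. When 1 array was left out, between 2 and 7 were lower and 0 to 1 higher, and the median of genes above background was between -0.46 and -0.12. Cacna1c was the 1 higher gene after quantile normalization, and also (1) without both arrays of replicate 1, where 6 were lower and the median was -0.23. The 11 genes given by array kept the sign of their difference under every alternative run, but many of these runs could not change it. For Scn3b, Cacnb1, Cacna1h, Scn8a and Cacna1s the conditions did not overlap, so leaving out arrays could not turn the sign. The replicate block, the trended variance and leaving out dim probes do not alter the difference of the means. With vomeronasal and bitter taste receptors as reference 25 channel genes were above background, with 21 at the 90th and 12 at the 99th percentile of olfactory receptors. For the dim genes signal over background limits what can be seen. The cause of these shifts was not tested.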
